A study of Homo sapiens with 9 samples.

Results

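The 10 genes described here are transcription factors and coactivators that set and hold the identity of B lymphocytes: PAX5, EBF1, POU2AF1, SPIB, SPI1, IRF4, IRF8, BCL6, BACH2 and IKZF3. They are read by the 23 probe sets whose single gene symbol on the platform is one of these names, out of 54675 probe sets and 19775 named genes. Their RNA was read on 9 Affymetrix arrays of P493-6 cells, a human line of B lymphocytes. The labels name 4 arrays high Myc, 3 arrays low Myc and 2 arrays no Myc, and give no treatment, time or culture for any of them. As background, P493-6 has a tetracycline-repressible MYC transgene and a form of the Epstein-Barr virus factor EBNA2 that depends on estrogen, and being 1 line it stands for no other B cells. It is not known whether replicates came from separate cultures, so p-values reflect array-to-array spread only, and this spread may be technical.

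As background, B-cell identity is built by factors that act together on the same genes. EBF1 opens B-lineage genes and helps to switch on PAX5, which activates B-cell receptor genes and represses genes of other lineages. SPI1 (the protein PU.1) and SPIB are related factors of the ETS family, and IRF4 and IRF8 bind beside them on shared DNA elements. POU2AF1 is a coactivator that joins octamer-binding proteins at immunoglobulin and other B-cell genes. BCL6 and BACH2 are repressors that hold back plasma cell differentiation, and IKZF3 (Aiolos) is a zinc finger protein of the Ikaros family.

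Values are intensities from RMA, a method that subtracts background, gives all arrays a common distribution and combines the probes into 1 value per probe set. Each difference is thus one in relative level within an array, and fewer cells of a type cannot be told apart from less RNA per cell. Array medians lay between 75.3 and 80.3. MYC read 12755, 11326, 15404 and 12186 on high Myc replicates 1 to 4, 2126, 2526 and 1443 on low Myc replicates 1 to 3, and 2803 and 416 on no Myc replicates 1 and 2. The library labelled no Myc replicate 1 thus had more MYC than any low Myc array, against its label. Counts of factors and probe sets called against the no Myc group, and of factors without overlap, are given with and without it. Calls in the gene lists are given without it for several lists, and counts of differences below 0 are given with it only. High Myc replicate 2 had the lowest mean correlation to the rest of its group, 0.981, against 0.985 to 0.989 for the other 3 arrays. Low Myc replicates 2 and 3 were as low within their own group, at 0.981 and 0.980. High Myc replicate 2 lay near low Myc in several genes named below. The log2 excess of the GAPDH probe set at the 3' side over the one at the 5' side, a measure of RNA integrity, was 0.033 to 0.24 in high Myc, 0.0094 to 0.15 in low Myc and 0.25 to 0.42 in no Myc. The same excess for ACTB was -0.049 to 0.19 in high Myc, -0.074 to 0.022 in low Myc and -0.011 to 0.0039 in no Myc, so the 2 genes did not order the groups alike. Their part in the results was not tested. The line carried its labelled B-cell markers: all 7 measured of a list of 8 (CD79A, CD79B, MS4A1, CD22, CD74, HLA-DRA and PTPRC) had a summed intensity of 27388 to 33959 in high Myc, 33322 to 36475 in low Myc and 52337 to 61540.4 in no Myc. All 7 fell in high against no Myc and 5 fell in low against no Myc, 2 and 2 without no Myc replicate 1, and their part in the results below was not tested. No detection calls were used, so a low intensity carries no statement on presence.

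**Figure D1:**
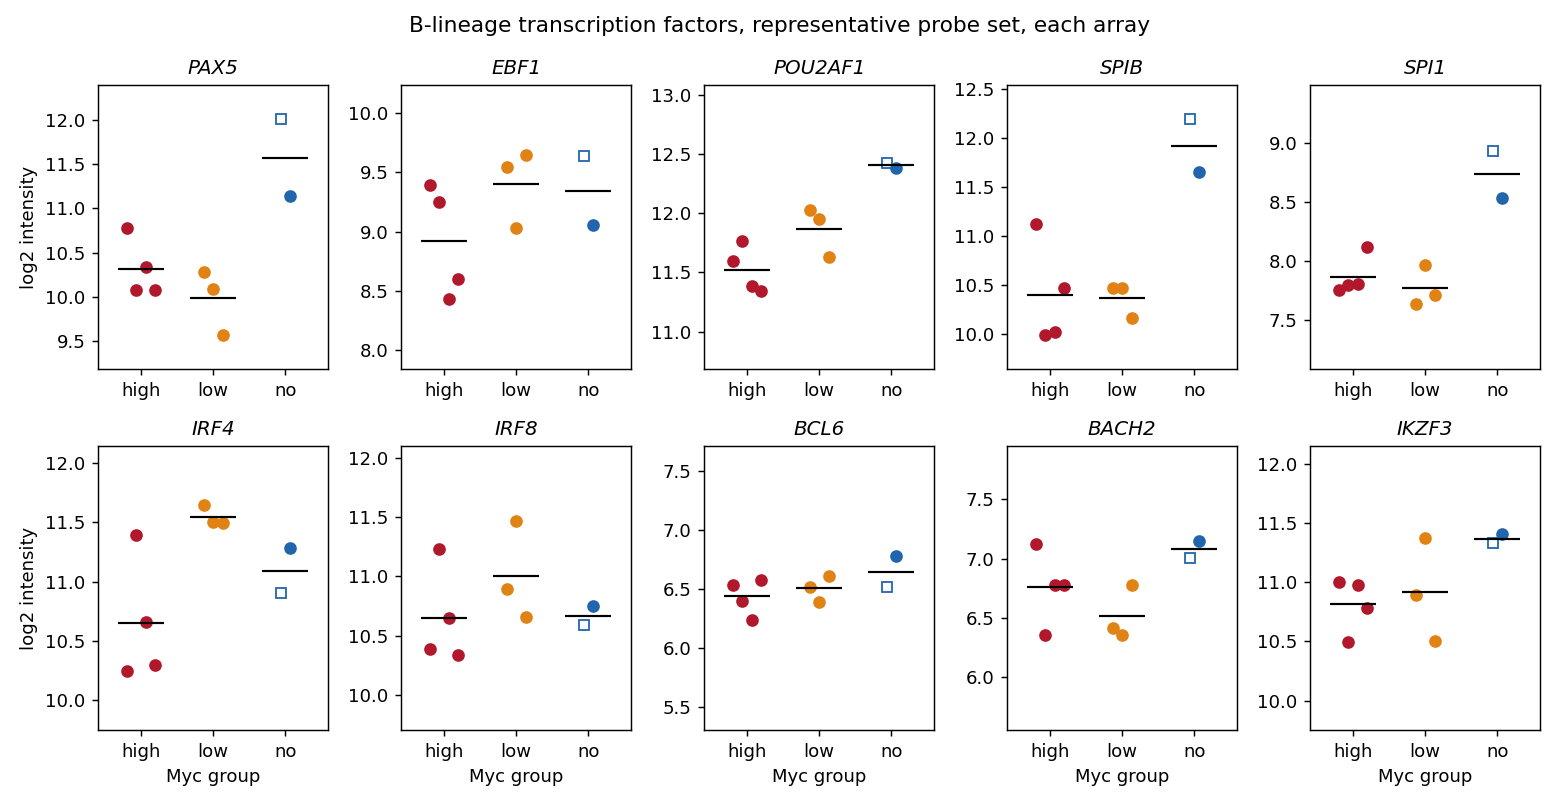
Log2 intensity of the 10 factors on each array, in the high, low and no Myc groups, from the probe set with the highest mean over all arrays, with horizontal lines at the group means and a separate y axis of at least 2 log2 units per gene. The open square is the library labelled no Myc replicate 1. PAX5, SPIB, SPI1 and POU2AF1 lie lower on every high and low Myc array than on both no Myc arrays, while EBF1, IRF8 and BCL6 overlap between the groups.

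High Myc cells had less PAX5, SPIB, SPI1 and POU2AF1 than no Myc cells, and no factor was higher. The fall was 2.87-fold for SPIB, 2.39-fold for PAX5, 1.84-fold for POU2AF1 and 1.82-fold for SPI1. EBF1, IRF4, IRF8, BCL6, BACH2 and IKZF3 did not pass the test. The 4 of 10 called lower stand against 9.0% of all genes called lower in this comparison and 14.2% called higher, 23.2% in all (limma, Benjamini-Hochberg adjusted p under 0.05 over 19775 genes). The fitted difference was below 0 for all 10 factors, with a median of -0.50 on the log2 scale, against 52.5% of all genes and a median of -0.01. Against the no Myc group, 5 of 10 factors had high Myc arrays that were all lower, compared with 17.8% of all genes, and 0 had arrays that were all higher, compared with 20.6%. Against no Myc replicate 2 alone, these were 7 factors, compared with 27.8% of all genes, and 0 factors, compared with 27.2%.

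PAX5 (Entrez gene 5079), the commitment factor of the B lineage, was highest on the no Myc arrays. Its intensity was 1752, 1080.3, 1291 and 1084 on high Myc replicates 1 to 4, 1246, 1090 and 760 on low Myc replicates 1 to 3, and 4114 and 2256 on no Myc replicates 1 and 2. No high or low Myc array reached either no Myc array, and the high and low Myc arrays overlapped. The mean log2 of PAX5 was 10.32 ± 0.33 (SD, n = 4) in high Myc and 11.57 ± 0.61 (SD, n = 2) in no Myc, a difference of -1.26 ± 0.30 (log2 ± SE, limma adjusted p = 0.0136). The fall was measured by probe set 221969_at. The other PAX5 probe set, 206802_at, read 160.3 to 187 in high Myc, 165 to 208 in low Myc and 183 to 221 in no Myc, with differences of -0.19 (adjusted p = 0.444 over all probe sets) between high and no Myc and -0.12 (adjusted p = 0.725) between low and no Myc. The fall of PAX5 therefore rests on 1 of its 2 probe sets.

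SPIB (Entrez gene 6689), an ETS factor of B cells, fell in both of its probe sets. Probe set 205861_at read 2229, 1015, 1034 and 1414 on high Myc replicates 1 to 4, 1414, 1414 and 1141 on low Myc replicates 1 to 3, and 4660.3 and 3216 on no Myc replicates 1 and 2. All high and low Myc arrays were below both no Myc arrays, and high Myc replicate 1 was the highest of those 7. The difference between high Myc (10.40 ± 0.53, SD, n = 4) and no Myc (11.92 ± 0.38, SD, n = 2) was -1.52 ± 0.31 (log2 ± SE, limma adjusted p = 0.00625). Probe set 232739_at read 328, 187, 233 and 251 on the high Myc arrays, 98.1, 155 and 142 on the low Myc arrays, and 696 and 559 on the no Myc arrays. Here the 3 groups did not overlap, with low Myc lowest. It was -1.35 ± 0.25 lower in high than in no Myc (adjusted p = 0.00579 over all probe sets) and -2.27 ± 0.26 lower in low than in no Myc (adjusted p = 0.0013). With no Myc replicate 1 left out, these were -1.19 (adjusted p = 0.0688) and -2.11 (adjusted p = 0.019). High and low Myc differed by 0.92 ± 0.22 on it, which did not pass (adjusted p = 0.0835).

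SPI1 (Entrez gene 6688), whose protein PU.1 acts in B cells and more strongly in myeloid cells, has 1 probe set. It read 216, 223, 224 and 278 on high Myc replicates 1 to 4, 199.9, 249.9 and 209.6 on low Myc replicates 1 to 3, and 489 and 370.3 on no Myc replicates 1 and 2. The high and low Myc arrays were all below both no Myc arrays and overlapped each other. SPI1 averaged 7.87 ± 0.17 (log2, SD, n = 4) in high Myc and 8.73 ± 0.28 (SD, n = 2) in no Myc, a difference of -0.86 ± 0.16 (SE) with a limma adjusted p of 0.00368. Of 8 measured myeloid markers, 2 moved with it and 6 were not called, with a list median of -0.10 in high against no Myc. LYZ (-3.85) and ITGAM (-3.05) fell in high against no Myc, and without no Myc replicate 1 the differences were -3.24 and -2.81. The list summed to 380.4 to 445 in high Myc, 348 to 398 in low Myc and 1636 to 2476 in no Myc. On no Myc replicates 1 and 2, LYZ read 775 and 333 and ITGAM 1480 and 1069, most of the sum. CD14 and CSF1R, defining markers of monocytes, read 35 to 45.6 and 38.5 to 57.5 in high Myc, 35 to 49.6 and 36.2 to 47.0 in low Myc, and 36.1 to 37.8 and 40.5 to 44.3 in no Myc, so they did not follow LYZ and ITGAM. The part of these markers in the SPI1 result was not tested.

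POU2AF1 (Entrez gene 5450), the octamer coactivator, had the tightest no Myc values of the 4 factors that fell. Probe set 205267_at read 3102, 3488, 2670 and 2592 on high Myc replicates 1 to 4, 4163, 3949 and 3159 on low Myc replicates 1 to 3, and 5494 and 5347 on no Myc replicates 1 and 2. Both other groups were below no Myc on every array, and high and low Myc overlapped. The difference of high Myc (11.52 ± 0.20, SD, n = 4) from no Myc (12.40 ± 0.03, SD, n = 2) was -0.88 ± 0.15 (log2 ± SE, limma adjusted p = 0.00294). The second probe set, 1569675_at, read 25.7 to 49.8 over all 9 arrays and did not differ (0.13, adjusted p = 0.843 over all probe sets).

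Promoter sequence is shown for 2 of the 4 factors that fell, PAX5 and SPIB, and for IRF4, which did not pass, to set the letters beside the values. The RefSeq promoter table used here (GRCh38.p14) was matched for 7 of the 10 factors, with 9 promoters, and those of SPI1, POU2AF1 and IKZF3 were not analysed here. The 250 bases before the start site of PAX5 (chr9:37034269-37034518, minus strand), SPIB (chr19:50418688-50418937, plus strand) and IRF4 (chr6:391502-391751, plus strand) read 5′ to 3′ as follows, with capitals marking CANNTG, the core of the E-box that MYC and other helix-loop-helix proteins can bind.
PAX5: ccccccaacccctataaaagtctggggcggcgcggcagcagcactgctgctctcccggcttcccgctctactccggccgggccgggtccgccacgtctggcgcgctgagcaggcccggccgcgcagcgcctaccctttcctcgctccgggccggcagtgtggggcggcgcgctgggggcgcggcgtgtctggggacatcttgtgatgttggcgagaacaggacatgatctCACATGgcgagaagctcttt
SPIB: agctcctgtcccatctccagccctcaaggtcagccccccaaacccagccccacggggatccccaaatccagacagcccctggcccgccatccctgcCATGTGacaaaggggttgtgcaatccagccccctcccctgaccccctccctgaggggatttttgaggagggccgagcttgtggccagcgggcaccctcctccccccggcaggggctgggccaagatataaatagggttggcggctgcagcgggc
IRF4: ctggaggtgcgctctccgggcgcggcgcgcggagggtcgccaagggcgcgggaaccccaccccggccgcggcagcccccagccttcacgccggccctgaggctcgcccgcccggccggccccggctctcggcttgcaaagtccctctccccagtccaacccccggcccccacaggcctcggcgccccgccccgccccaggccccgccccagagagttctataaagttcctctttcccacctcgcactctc
PAX5 and SPIB had 1 match to CANNTG each and IRF4 had 0, while 61.8% of 35116 RefSeq promoters of the same length held at least 1. CACGTG, the E-box form preferred by MYC and itself a case of CANNTG, had 0 matches in all 9 promoters of these factors and was found in 6.34% of all promoters. All motifs were searched on both strands. The ETS core GGAA had 2 matches in PAX5, 0 in SPIB and 3 in IRF4, and 92.7% of all promoters held it. ATGCAAAT, the octamer, had 0 matches in the 9 promoters, against 1.63% of all promoters. A match is a description of letters in this window and not a binding site.

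Low Myc cells differed from no Myc cells in the same named factors, a comparison that shares its 2 no Myc arrays with the one above. PAX5 was 3.01-fold lower, SPIB 2.94-fold, SPI1 1.95-fold and POU2AF1 1.45-fold, and no factor was higher. The log2 differences were -1.59 ± 0.31 for PAX5 (limma adjusted p = 0.00718), -1.56 ± 0.32 for SPIB (adjusted p = 0.00948), -0.96 ± 0.17 for SPI1 (adjusted p = 0.00388) and -0.54 ± 0.16 for POU2AF1 (adjusted p = 0.0463). These 4 of 10 stand against 8.55% of all genes called lower in this comparison, 11.3% called higher and 19.8% in all. Differences were below 0 for 7 of 10 factors and for 50.4% of all genes. Arrays did not overlap for 5 factors that were lower, against 17.6% of all genes, and for IRF4, which was higher, against 20.0%. Against no Myc replicate 2 alone these were 7 factors (26.7% of all genes) and 1 factor (27.5%). Leaving out 1 array at a time ended the POU2AF1 call in 8 of 9 fits (adjusted p up to 0.214), with arrays centred on their median (adjusted p = 0.082), with only the 2 groups fitted (adjusted p = 0.0787) and when adjusted over all probe sets (adjusted p = 0.0587).

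Both comparisons with no Myc leaned on no Myc replicate 1, which read more MYC than the low Myc arrays. Without no Myc replicate 1, which left 1 no Myc array assumed to vary like the others, 1 factor of 10 was called in each comparison. In that fit 4.61% of all genes were called lower and 9.11% higher in high against no Myc, and 4.22% and 5.16% in low against no Myc. In high against no Myc that was POU2AF1 (-0.86, adjusted p = 0.0337), while SPI1 (-0.66, adjusted p = 0.0518), SPIB (-1.25, adjusted p = 0.083) and PAX5 (-0.82, adjusted p = 0.165) missed the threshold. In low against no Myc it was SPI1 (-0.76, adjusted p = 0.0469), while PAX5 (-1.16, adjusted p = 0.0776), SPIB (-1.29, adjusted p = 0.102) and POU2AF1 (-0.52, adjusted p = 0.214) missed it. All 4 differences stayed below 0 in every fit that left out 1 array. This had to follow, because every high and low Myc array was below both no Myc arrays, so it adds no separate check. Without no Myc replicate 2 the differences of high from no Myc were larger for these 4 factors, up to -1.79 for SPIB, and all 4 were called.

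**Figure D2:**
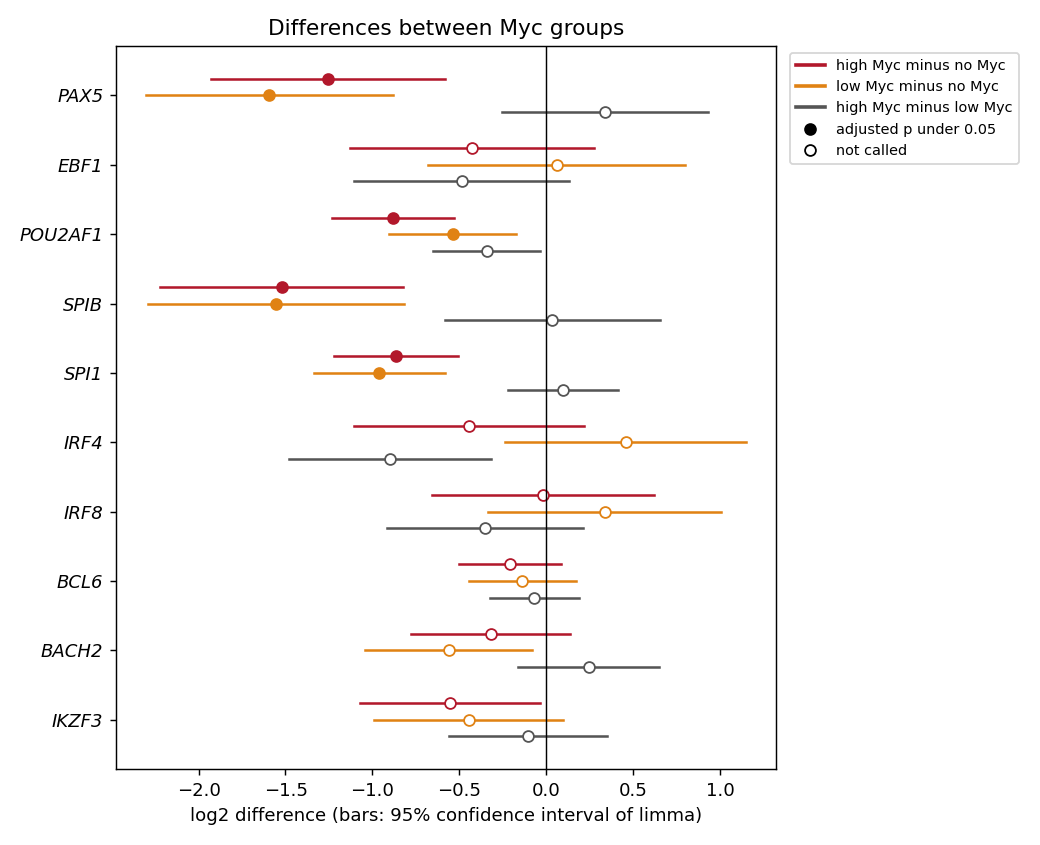
Log2 differences of the 10 factors between the Myc groups from limma, with 95% confidence intervals; filled points have an adjusted p under 0.05. PAX5, SPIB, SPI1 and POU2AF1 are called lower against no Myc in both comparisons, and no factor is called between high and low Myc.

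**Figure D3:**
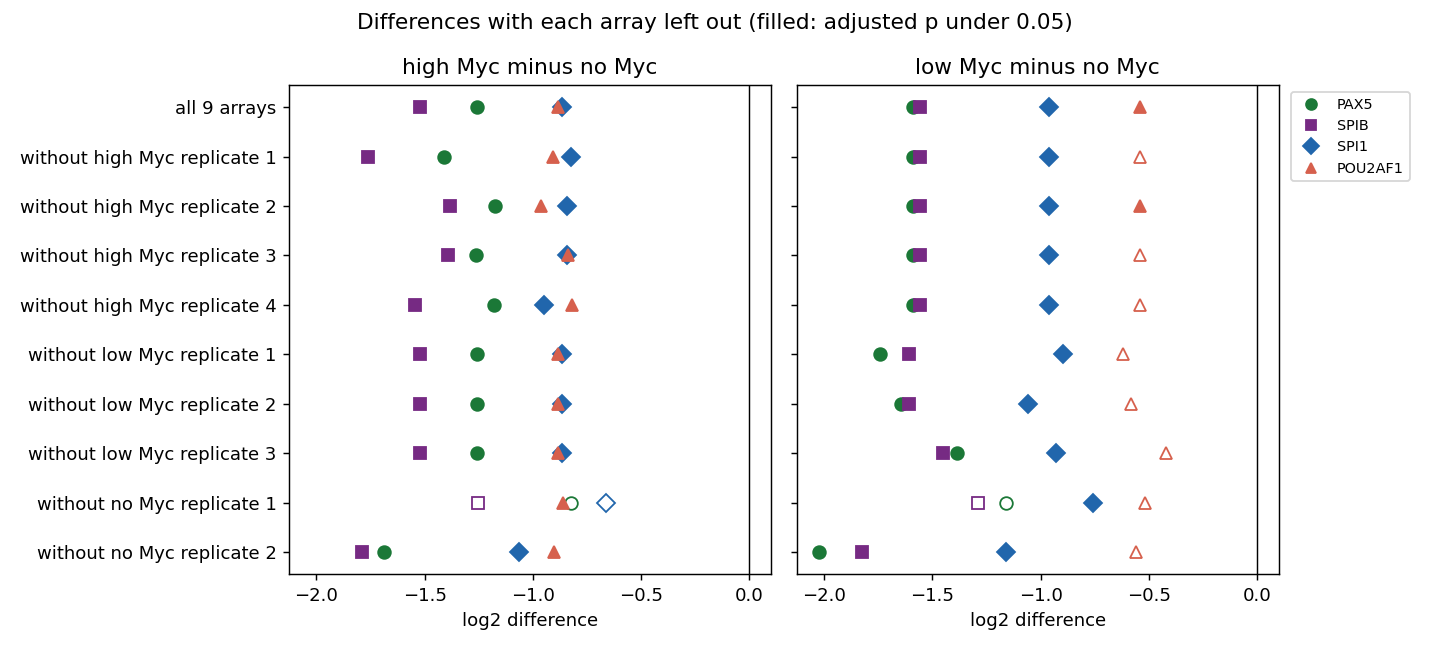
Log2 differences of PAX5, SPIB, SPI1 and POU2AF1 from no Myc with all 9 arrays and with each array left out; filled points have an adjusted p under 0.05. Without no Myc replicate 1, POU2AF1 is called in high Myc and SPI1 in low Myc, and without the other arrays PAX5, SPIB and SPI1 are called in both comparisons.

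Between high and low Myc, 0 of 10 factors were called by limma, against 3.60% of all genes, 1.27% lower and 2.33% higher. POU2AF1 and IRF4 had an unadjusted limma p under 0.05, but the share of all genes under that threshold was not determined. The intervals of the differences between high and low Myc (95%, log2) ran from -0.26 to 0.93 for PAX5, from -0.58 to 0.65 for SPIB, from -0.22 to 0.41 for SPI1 and from -0.65 to -0.036 for POU2AF1. Differences were below 0 for 6 of 10 factors and 49.4% of all genes. IRF4 had high Myc arrays that were all lower than low Myc, against 4.66% of all genes, and 0 factors had arrays that were all higher, against 8.06%. POU2AF1, -0.34 lower in high than in low Myc (adjusted p = 0.236), was called when quantile normalization was repeated (-0.45, adjusted p = 0.0432).

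IRF4 (Entrez gene 3662), which at high levels drives plasma cell differentiation, was highest on the low Myc arrays. Probe set 204562_at read 1211, 2687, 1619 and 1257 on high Myc replicates 1 to 4, 3207, 2898 and 2890.0 on low Myc replicates 1 to 3, and 1913 and 2493 on no Myc replicates 1 and 2. Low Myc arrays were above every other array, and high Myc replicate 2 was above both no Myc arrays while the other 3 high Myc arrays were below them. The differences were -0.90 ± 0.26 (log2 ± SE) between high Myc (10.65 ± 0.53, SD, n = 4) and low Myc (11.55 ± 0.09, SD, n = 3), with a limma adjusted p of 0.0971, -0.45 ± 0.29 between high and no Myc (adjusted p = 0.391) and 0.46 ± 0.31 between low and no Myc (adjusted p = 0.432). Without high Myc replicate 2, IRF4 was lower in high than in low Myc by -1.15 (adjusted p = 0.00354) and than in no Myc by -0.69 (adjusted p = 0.0184), both past the threshold. A second probe set, 216986_s_at, read 199.7, 399.7, 182 and 133 on the high Myc arrays, 352, 254 and 317 on the low Myc arrays, and 193 and 169 on the no Myc arrays, again with high Myc replicate 2 far above its group. The third, 216987_at, read 13.7 to 16.3 on all 9 arrays.

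IRF8 (Entrez gene 3394), the interferon regulatory factor that partners PU.1 in B and myeloid cells, showed no difference between the groups that exceeded the spread between arrays. It read 1337, 2407, 1609 and 1294 on high Myc replicates 1 to 4, 1899.6, 2826 and 1614 on low Myc replicates 1 to 3, and 1541 and 1721 on no Myc replicates 1 and 2. The groups overlapped, and the highest array of high Myc was again replicate 2. High and no Myc differed by -0.02 ± 0.28 (log2 ± SE, limma adjusted p = 0.985), with an interval from -0.66 to 0.62, low and no Myc by 0.33 ± 0.30 (adjusted p = 0.598) and high and low Myc by -0.35 ± 0.25 (adjusted p = 0.613).

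High Myc replicate 2 lay nearer the low Myc arrays in several genes of the lists below as well. VPREB3 read 746, 149, 556 and 853 on high Myc replicates 1 to 4 and 77.2, 99.3 and 186 on low Myc replicates 1 to 3. JCHAIN read 5408, 698, 3527 and 4265 on the high Myc arrays and 37.8, 348 and 166 on the low Myc arrays. ID2 read 482, 1715, 656 and 372 on the high Myc arrays and 3692, 3627 and 2816 on the low Myc arrays. In these genes, named after their values were seen, replicate 2 was the high Myc array closest to low Myc, while its MYC, 11326, was far above the low Myc range.

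EBF1 (Entrez gene 1879), which acts upstream of PAX5, did not pass the test, and the 2 genes were not tested against each other. Probe set 227646_at read 674, 608, 345 and 388 on high Myc replicates 1 to 4, 745, 522 and 801 on low Myc replicates 1 to 3, and 795 and 533 on no Myc replicates 1 and 2. All groups overlapped on this probe set. Its differences were -0.43 ± 0.31 (log2 ± SE) between high and no Myc (limma adjusted p = 0.452), 0.06 ± 0.33 between low and no Myc (adjusted p = 0.959) and -0.49 ± 0.27 between high and low Myc (adjusted p = 0.463). None of the 4 EBF1 probe sets was called in any comparison. Probe set 232204_at was lower on all high Myc arrays than on both no Myc arrays (-0.43). Probe set 229487_at was higher on all low Myc arrays than on both no Myc arrays (0.49). Between high and low Myc all 4 had differences below 0, from -0.41 to -0.56, with adjusted p from 0.299 to 0.571 over all probe sets. The interval of the difference between high and no Myc, -1.13 to 0.27, includes a fall as large as that of POU2AF1 or SPI1.

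IKZF3 (Entrez gene 22806) was highest on the no Myc arrays in its brighter probe sets without passing the test. Probe set 227030_at read 2049.6, 1443, 2013 and 1764 on high Myc replicates 1 to 4, 1895, 2648 and 1453 on low Myc replicates 1 to 3, and 2576 and 2711 on no Myc replicates 1 and 2. High Myc did not overlap with no Myc, but low Myc replicate 2 lay between the no Myc arrays. The difference between high and no Myc was -0.55 ± 0.23 (log2 ± SE, limma adjusted p = 0.133), and it was called when quantile normalization was repeated (-0.76, adjusted p = 0.0196), with only the 2 groups fitted (-0.55, adjusted p = 0.0425) and without low Myc replicate 2 (adjusted p = 0.0491). Probe set 236301_at differed by -0.84 ± 0.29 between high and no Myc (adjusted p = 0.0883 over all probe sets), and 221092_at, read at 51.1 to 244 over all arrays, by -0.06.

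BACH2 (Entrez gene 60468) was dim and varied within groups. Probe set 227173_s_at read 139.6, 81.8, 109.5 and 109.5 on high Myc replicates 1 to 4, 85.1, 82.0 and 109.5 on low Myc replicates 1 to 3, and 129 and 142 on no Myc replicates 1 and 2. High Myc overlapped with both other groups, and low Myc lay below no Myc. The difference of low from no Myc was -0.56 ± 0.21 (log2 ± SE, limma adjusted p = 0.109), called only without high Myc replicate 2 among the fits that left out 1 array (adjusted p = 0.0482), and that of high from no Myc was -0.32 ± 0.20 (adjusted p = 0.372). The second probe set, 221234_s_at, spread over 32.0 to 142 in high Myc, 22.2 to 89.4 in low Myc and 101 to 133 in no Myc.

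BCL6 (Entrez gene 604), a repressor that holds back plasma cell differentiation, gave low readings, and none of its 3 probe sets was called. The brightest, 228758_at, read 92.5, 84.5, 75.5 and 95.5 on high Myc replicates 1 to 4, 91.3, 84.0 and 97.8 on low Myc replicates 1 to 3, and 91.3 and 109.5 on no Myc replicates 1 and 2. The groups overlapped, and high and no Myc differed by -0.21 ± 0.13 (log2 ± SE, limma adjusted p = 0.364). The other probe sets read 32.8 to 51.6 and 24.0 to 36.6 over all arrays.

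**Figure D4:**
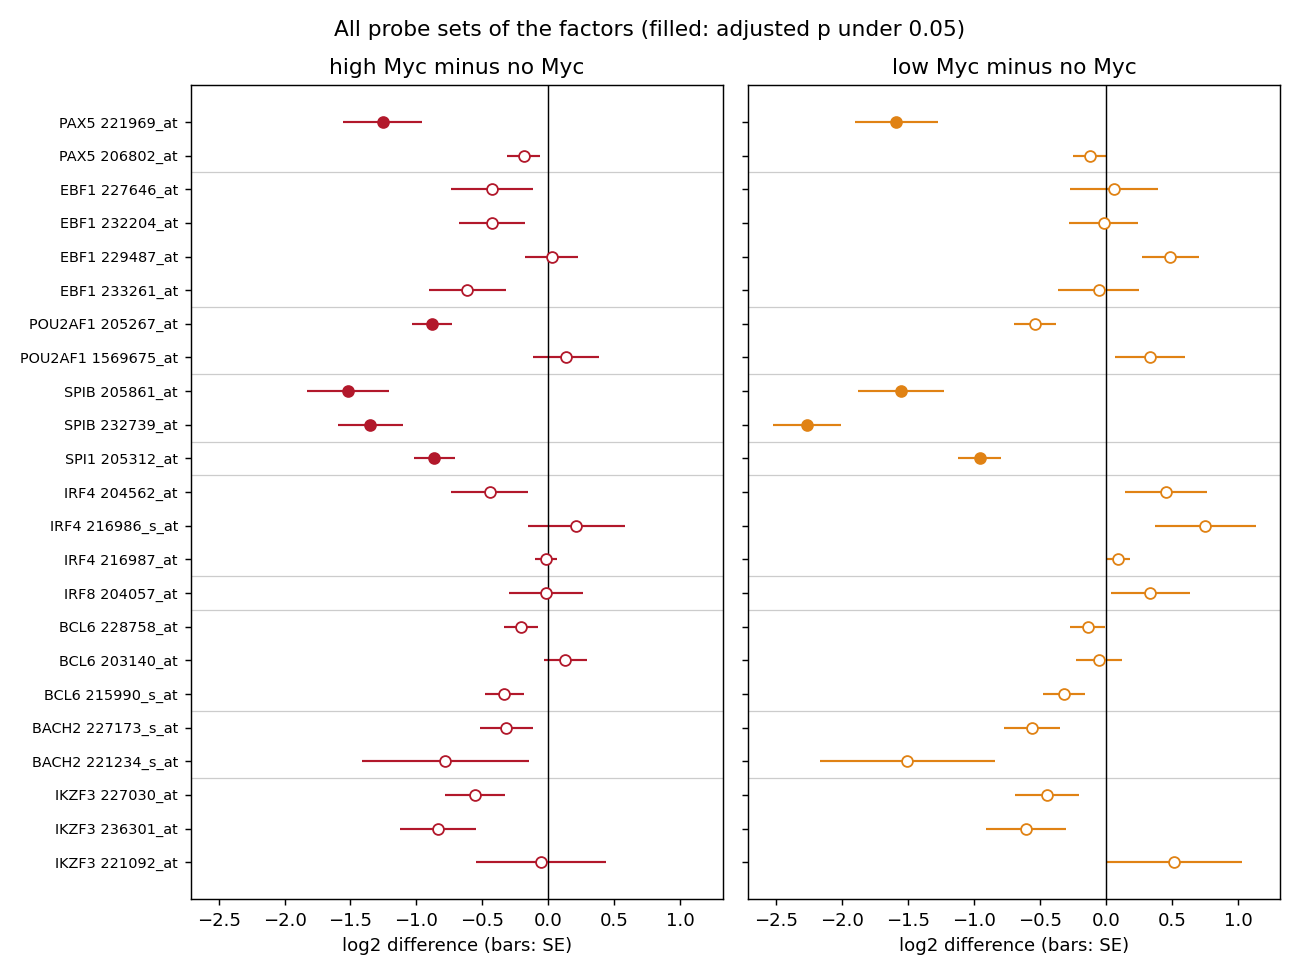
Log2 differences from no Myc, with standard errors, of all 23 probe sets of the factors in high Myc and in low Myc; filled points have an adjusted p under 0.05 over all 54675 probe sets. Both SPIB probe sets are filled in both panels, while PAX5 and POU2AF1 each have 1 probe set near 0 or above it.

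Counted by probe set, 5 of the 23 were called lower in high than in no Myc, against 7.79% of all probe sets called lower and 17.0% in all, and 4 of 23 in low against no Myc, against 7.66% and 14.4%. Between high and low Myc 0 of 23 were called by limma, against 0.525% called lower and 1.57% in all, and none was called higher in any comparison. Between high and low Myc 4 probe sets, 1 each of EBF1, POU2AF1, SPIB and IRF4, had an unadjusted limma p under 0.05. The share of all probe sets under that threshold was not determined, so this count has no background to be set against. Without no Myc replicate 1, 1 of 23 was called lower in high against no Myc (POU2AF1 205267_at), against 3.55% of all probe sets, and 1 of 23 in low against no Myc (SPIB 232739_at), against 3.25%. Probe sets of 1 gene are not independent of each other.

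The genes whose log2 values followed each factor most closely over the 9 arrays, among 17241 genes with a mean log2 of at least 5, were named by rank of Pearson correlation. They describe these 9 arrays only, which share their groups and normalization. SPIB was followed by PIKFYVE (r = 0.994) and C16orf54 (0.991), PAX5 by SGSM2 (0.993) and GEN1 (0.993), SPI1 by GUCD1 (0.983) and PSTPIP1 (0.979), and POU2AF1 by CCNDBP1 (0.982) and ERBIN (0.976). IRF4 was followed by FSD1L (0.984) and ALPK2 (0.984), IRF8 by FGD6 (0.967) and HACL1 (0.965), IKZF3 by PPP1R16B (0.964) and LPXN (0.945), and BACH2 by RHOBTB2 (0.949) and LOC102723380 (0.947). EBF1 was followed by VSIG10L (0.963) and UPP2 (0.919), and BCL6 by AZGP1P1 (0.970) and MIRLET7BHG (0.960). VSIG10L read 31.4 to 40.2, UPP2 41.5 to 50.6 and AZGP1P1 37.0 to 48.4 over the 9 arrays. The correlations of these genes rest on small differences between low readings. ALPK2, a kinase gene, shows the pattern of IRF4 in exaggerated form, with 41.8, 903, 81.0 and 61.7 on high Myc replicates 1 to 4, 932, 854 and 1026 on low Myc replicates 1 to 3, and 184 and 422 on no Myc replicates 1 and 2.

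Other B-lineage factors held more called falls than rises. Of 30 measured in a list of 33, 8 fell and 2 rose in high against no Myc (median -0.52, against -0.01 over all genes), and 10 fell and 2 rose in low against no Myc (median -0.40, against 0.00). Of all genes, 9.0% were called lower and 14.2% higher in high against no Myc, and 8.55% and 11.3% in low against no Myc, so the 2 rises were no larger a share than in all genes. POU2F2, the octamer-binding partner of POU2AF1 (-1.55 ± 0.33, adjusted p = 0.00769), TCF4, an E protein (-1.35 ± 0.23, adjusted p = 0.00282), and LMO2 (-1.29 ± 0.15, adjusted p = 0.000412) led the falls in high Myc (limma, log2 ± SE). LEF1, a Wnt pathway factor of early B and T cells, rose by 3.26 ± 0.28 in high Myc and by 1.93 ± 0.30 in low Myc (limma adjusted p = 0.000146 and 0.00234). KLF2, which holds lymphocytes quiescent (-3.67 ± 0.61), TCF4 (-1.95 ± 0.25) and POU2F2 (-1.92 ± 0.34) led the falls in low Myc. Without no Myc replicate 1 the falls numbered 4 in high and 5 in low Myc, and without no Myc replicate 2 those in high Myc numbered 5; POU2F2 was among those lost in both comparisons without no Myc replicate 1 (adjusted p = 0.101 and 0.0584). LEF1, TCF4 and LMO2 were still called in both (LEF1 at 3.01 and 1.68), and KLF2 in low Myc (-3.57).

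Known target genes of the factors held many called falls in high and low Myc against no Myc. In high against no Myc 9.0% of all genes were called lower and 14.2% higher (median -0.013). In low against no Myc these were 8.55% and 11.3% (median -0.0017). Of 13 measured genes that PAX5 or EBF1 activate (list of 14), 7 fell and 1 rose in high Myc (median -1.20). In low Myc 6 fell and 2 rose (median -1.29). VPREB3, a pre-B-cell receptor partner, fell in high Myc (-3.54, log2) and in low Myc (-5.63). CD72, an inhibitory receptor, fell too (-3.52 and -4.86), as did CD79B, a signalling chain of the B-cell receptor (-2.20 and -2.82). CR2, the complement receptor and a gene of the same list, rose in low Myc by 3.61 ± 0.49 (limma adjusted p = 0.00141) and was higher there than in high Myc (-3.38 ± 0.41 for high minus low, adjusted p = 0.00456), with 45.0 to 148 in high Myc, 464 to 827 in low Myc and 47.3 to 61.5 in no Myc. The riser in high Myc was LEF1, and it was also the other riser in low Myc. Of 8 measured genes that PU.1, SPIB or POU2AF1 activate (list of 9, of which CD72 and CIITA are also in the other list), 5 fell in high Myc (median -1.38) and 7 in low Myc (median -1.75), and none rose. CYBB, a subunit of the phagocyte oxidase, fell in low Myc (-4.77), and NCF1, of the same complex, fell in high Myc (-2.26) and in low Myc (-3.15). Without no Myc replicate 1 the falls of these lists in high Myc numbered 4 and 3, and in low Myc 6 and 5. In that fit VPREB3 (-3.40 and -5.49), CD72 (-3.36 and -4.69) and CD79B (-1.95 and -2.57) were called in both comparisons, CR2 (3.80), CYBB (-4.66) and NCF1 (-3.09) were called in low Myc, and NCF1 was lost in high Myc (adjusted p = 0.0605).

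Genes that BCL6 is known to repress were mostly below 0 in high Myc without most of them passing. Of 13 measured (list of 16, IRF4 among them), 11 had a difference below 0 in high against no Myc (median -0.52), against 52.5% of all genes. In high against low Myc 12 did (median -0.81), against 49.4%, and in low against no Myc 5 did (median 0.30), against 50.4%. Called lower and higher were 9.0% and 14.2% of all genes in high against no Myc. These shares were 8.55% and 11.3% in low against no Myc. BCL2 (-1.53), BCL2L1 (-1.32) and CD44 (-1.03) fell and ATR (0.49) rose in high against no Myc, and CD80 (1.64) and CCND2 (0.57) rose in low against no Myc. The falls in high Myc numbered 6 without high Myc replicate 2 and 1 without no Myc replicate 1, and the rises in low Myc ranged from 0 to 4 over the fits that left out 1 array. Of the 9 such fits, the call was lost in 6 for ATR (adjusted p up to 0.170), 5 for BCL2, 2 for CD44, 7 for CD80, 6 for CCND2 and 0 for BCL2L1. Of 7 PAX5-repressed genes (medians 0.060 and -0.0072), XBP1 (0.74) rose in high Myc, and in low Myc NOTCH1 (1.15) rose and JCHAIN (-4.87) fell. These 3 calls were each lost without either no Myc array, NOTCH1 also without low Myc replicate 1 or 2, and XBP1 also without any 1 high Myc array or low Myc replicate 1 (adjusted p up to 0.346). GCLM, a glutathione synthesis gene, was the 1 riser of 4 BACH2-repressed genes, by 1.96 ± 0.26 in high Myc and 1.76 ± 0.27 in low Myc (limma adjusted p = 0.000712 and 0.00226), and it was called without no Myc replicate 1 as well (2.07 and 1.87). The medians of these 4 were 0.22 and 0.33. Among 11 plasma cell genes (medians 0.088 and -0.37), FKBP11 (2.32, and 2.07 without no Myc replicate 1, still called) and XBP1 rose in high Myc and JCHAIN fell in low Myc, and PRDM1, the plasma cell master regulator, differed by -0.40 and -0.25 without passing.

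Factors that define other blood lineages gave few calls, but several of them read low on all arrays. BCL11B read 21.9 to 31.2, CEBPD 23.0 to 29.1 and NFE2 27.8 to 32.4 over the 9 arrays, levels at which a fall may not show. Others were brighter, such as GATA1 at 191 to 298. Of 16 measured in a list of 19, CEBPB, a myeloid and stress-responsive factor, rose by 1.69 ± 0.26 in high Myc and by 1.0 ± 0.28 in low Myc (limma adjusted p = 0.0016 and 0.0316), and the rise in low Myc was lost without either no Myc array or low Myc replicate 1 or 2. Their medians were 0.02 and -0.02. Among T and NK cell markers 1 of 12 was called, CD2 in high Myc (-0.90, lost in 6 of 9 fits without 1 array, adjusted p up to 0.394), with a summed intensity of 1173 to 1415 in high Myc, 1219.9 to 1408 in low Myc and 1294 to 1411 in no Myc. The 4 measured erythroid and platelet markers summed to 495 to 522 in high Myc, 524 to 538 in low Myc and 527 to 551 in no Myc, with no call. Of 7 fibroblast and epithelial markers CDH1 rose in low Myc (3.22), a call lost without either no Myc array.

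Between high and low Myc, the lists gave few calls and these changed with single arrays. Of all genes, 1.27% were called lower and 2.33% higher. Of the other B-lineage factors ID2 (-2.32), MEF2C (-1.33) and IRF2 (-0.73) were lower and LEF1 (1.33) higher in high than in low Myc, and without high Myc replicate 2 the higher ones numbered 7. Over the 9 fits that left out 1 array, the call was lost in 8 for ID2, 6 for IRF2, 6 for LEF1 and 1 for MEF2C, and all 4 were lost without low Myc replicate 1. BCL6 targets had 4 lower, ID2, CD80, BCL2L1 and CCND2, and 0 to 8 over those fits, and each of the 4 was lost in 6 to 8 of them. CR2 was called in all 9 of those fits, and JCHAIN, 4.40 higher in high than in low Myc, was lost in 7 of them. P2RY10, of the targets of PU.1 and SPIB, was lower (-1.56) and was called in 2 of those fits.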

How the data were processed

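Total RNA of P493-6 cells was extracted with Qiagen RNeasy, labelled with biotin and read on Affymetrix arrays, per the labels' protocols. The authors deposited 1 table of RMA values, named RMA in the submitters' processing notes, as intensity on a linear scale; the RMA version and genome build are not given in the sources used here. Log2 of these values was taken. Of 54675 probe sets, 41097 had 1 symbol in the platform annotation, 1801 several and 11777 none. For 41043 of the 41097, the current symbol was looked up through the Entrez identifier, whether or not it differed from the platform symbol. A gene was represented by its probe set with the highest mean log2, which gave 19775 genes. Group means of all 9 arrays were fitted in 1 model with limma 3.58.1 in R 4.3.3 (6 residual degrees of freedom), two-sided, with Benjamini-Hochberg adjustment over all genes and a threshold of 0.05. A second fit ran over all probe sets. The procedure was tested on simulated data. Alternatives were another gene summary, other normalizations, a filter at a mean log2 of 5, a trended and robust prior, fewer groups, a replicate block, a stricter threshold and each array left out. Those for probe sets and gene lists, and for arrays without overlap, were chosen after seeing the data. The factors, gene lists and tests were chosen with earlier results of these data known. The text names all factors, MYC, the 2 genes most like each factor, and up to 4 called genes per list and comparison; VPREB3, JCHAIN and ID2 values by array, IRF2, XBP1, PRDM1, FKBP11 and marker values were added after values were seen. Array number limits the precision. No pair of arrays held identical values.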

Additional observations from a re-analysis of the deposited data

Results flagged for a closer look

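Of 23 probe sets examined in the 4 high Myc arrays, 2 had an array far from the other 3 relative to the range of the group, where chance gives about 1 in 20. SPI1 read 278 on high Myc replicate 4, against 216 to 224 on replicates 1 to 3, and its difference from no Myc without that array lay within the range of -1.06 to -0.66 over the 9 fits that left out 1 array. The IRF4 probe set 216987_at read 13.7 on high Myc replicate 2, against the same value, 14.3371, on the other 3 arrays. With 3 equal values the gap is the whole range, so the flag follows from the tie and the chance rate does not apply. No probe set of IRF4 was called.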

How the results depend on the processing

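Among the single factors, 469 of 510 alternative values kept their direction and their side of the threshold, 19 lost the call, 7 gained it and 15, none of a called difference, changed sign. With genes summarised by their median probe set, the difference between high and no Myc was 0.21 for IRF4 and 0.12 for BCL6, and POU2AF1 lost its calls (-0.37 in high and -0.10 in low Myc); that of BCL6 between high and low Myc was 0.18. IRF8 between high and no Myc was 0.025 with arrays centred and 0.20 with the replicate block, and SPIB between high and low Myc was -0.067 with quantile normalization repeated. Over the fits that left out 1 array, the difference of IRF8 between high and no Myc ran from -0.21 to 0.087, of EBF1 between low and no Myc from -0.23 to 0.35, and between high and low Myc of SPIB from -0.21 to 0.17 and of IKZF3 from -0.32 to 0.12. At an adjusted p under 0.01 PAX5 was not called in high against no Myc, nor POU2AF1 in low against no Myc. The factors called ranged over those fits from 1 to 5 for high and for low against no Myc and from 0 to 1 for high against low Myc, where 1 was also called with quantile normalization repeated.

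The genes called ranged over those fits from 2714 to 4868 (4584 with all arrays) for high against no Myc, from 1855 to 4381 (3919) for low against no Myc and from 228 to 1204 (712) for high against low Myc, the last without high Myc replicate 2. The probe sets called ranged from 4749 to 9872 (9314), from 3121 to 8620.0 (7869) and from 242 to 1898 (856). At an adjusted p under 0.01 the genes were 3048, 2188 and 143 and the probe sets 5416, 3725 and 144. With only the 2 groups fitted, low against no Myc gave 5219 probe sets, and high against low Myc 406 genes and 411 probe sets. With the replicate number as a block, high against low Myc gave 154 genes and 156 probe sets, and the block changed no call of the 10 factors. Same-numbered arrays did not deviate together throughout (correlations of -0.31 to 0.47), and 2 of 6 high and low Myc arrays correlated best with their own number. With so few arrays, these values cannot tell whether arrays of the same number share more than the number. With quantile normalization repeated, 51.4% of the calls between high and low Myc were higher in high Myc, against 64.6%. The causes were not tested. Fits that left out 1 no Myc array had 1 array in that group.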

Other observations

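JCHAIN, the joining chain of secreted immunoglobulin, did not go with PAX5, which is known to repress it. Its intensity was 5408, 698, 3527 and 4265 on high Myc replicates 1 to 4, 37.8, 348 and 166 on low Myc replicates 1 to 3, and 3916 and 3660.5 on no Myc replicates 1 and 2, so that high and no Myc overlapped while PAX5 did not. Of the 13 measured genes that PAX5 or EBF1 activate, 10 had a difference below 0 in each comparison with no Myc. LEF1 was called higher than no Myc in high and in low Myc, and CR2 in low Myc only. LEF1 read 1255, 703, 1336 and 1168 on the high Myc arrays, 529.7, 339.7 and 443 on the low Myc arrays, and 94.8 and 134 on the no Myc arrays, with no overlap between the 3 groups. KLF2 read 934, 207, 569 and 651 on the high Myc arrays, 76.1, 214 and 182 on the low Myc arrays, and 1966 and 1704 on the no Myc arrays.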
